A study of Mus musculus with 4 samples.

Results

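The cells described here are mononuclear phagocytes from the aortic arch of a Smad4 conditional knockout mouse line that carry transcripts of Arg1, the cytosolic arginase, and they are called Arg1 cells below. A cell barcode was counted as an Arg1 cell when it held at least 500 genes and under 10% mitochondrial unique molecular identifiers (UMIs, 1 per captured transcript), 3 or more UMIs of Arg1, 1 or more of the phagocyte growth factor receptor gene Csf1r, and 0 of the T cell gene Cd3e and the endothelial gene Pecam1. In the cKO arch library 181 of 5842 kept cells met this rule, of 25593 kept cells in all 4 libraries. They are set against 568 cells of the same library, called C1q cells here, that had 10 or more UMIs of C1qa, C1qb and C1qc together, 1 or more of Csf1r and 0 of Arg1. The levels of Arg1, Csf1r, C1q, Cd3e and Pecam1 are therefore fixed by these rules in one set or the other and are not results.

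Arginase 1 splits arginine into ornithine and urea, which takes arginine away from nitric oxide synthesis and feeds polyamine and proline synthesis. In macrophages it is induced by interleukin 4 and 13, by hypoxia and lactate, and by signals met in wounds and tumours, and it is widely used as a sign of a wound-repair or suppressive state. The C1q genes encode the recognition molecule of the classical complement pathway and are typical of mature tissue macrophages, whereas blood monocytes and cells that have recently left the blood hold little of them.

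The cKO arch library came from CNC-SMC-Cre;Smad4flox/flox;R26-tdT mice and the control arch library from CNC-SMC-Cre;R26-tdT mice. A descending thoracic aorta library of each genotype completes the set. All mice carried the Cre driver and the reporter and were 16 to 20 weeks old. The driver is aimed at smooth muscle of cardiac neural crest origin and not at phagocytes, and vessels were perfused before collagenase digestion. How many animals went into a library is not stated here. Each group had 1 library, so no difference between groups has a replicate check, no test was made, and all intervals below cover counting error only. Smad4, the signal transducer shared by the TGF-beta and BMP pathways, was at 53.5 UMIs per 1000000 (CPM, counts scaled to the total UMIs of the summed cells) in Arg1 cells and 59.3 CPM in C1q cells.

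Libraries differed in quality before any result. The gene filter failed 2311 barcodes of the cKO arch library and 594 to 943 of each other library, and the mitochondrial filter failed 1723 against 86 to 362. Kept cells had a median of 5736 UMIs in the cKO arch library, against 10226.5 in the control arch, 6575 in the cKO descending and 7087.5 in the control descending library. Pairs of libraries shared 66 to 99 barcodes, and for 2 pairs, cKO arch with control arch and with cKO descending, 1 shared barcode was that of an Arg1 cell. Arg1 cells had 1730 to 27406 UMIs (median 8144), a median of 2478 genes and 2.46% mitochondrial UMIs. C1q cells had a median of 7574 UMIs, 2512.5 genes and 3.24% mitochondrial UMIs, so the sets were of like depth.

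By phagocyte genes that the rule did not use, the Arg1 cells carried a mononuclear phagocyte profile. The lysosomal glycoprotein gene Cd68 was at 427 CPM in Arg1 cells and 415 CPM in C1q cells. The Fc receptor gene Fcgr1 stood at 609 CPM in Arg1 cells against 259 CPM in C1q cells. The macrophage adhesion receptor gene Adgre1 (F4/80) was lower, at 85.2 CPM in Arg1 cells against 350 CPM in C1q cells. Of the 20 phagocyte core genes tested, 2 were at least 2-fold higher and 4 at least 2-fold lower in Arg1 cells. Over all genes tested between these sets, 4.61% were at least 2-fold higher and 10.8% at least 2-fold lower. The name macrophage holds less well by C1q: 102 Arg1 cells (56.4%) had 0 to 2 C1q UMIs, 9 had 3 to 9 and 70 (38.7%) had 10 or more, so the cells are named here by Arg1 alone.

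Markers of several other cell types were sparse in Arg1 cells, while smooth muscle and fibroblast genes were found in many. Over the 10 platelet genes besides Ppbp and Pf4 the Arg1 cells held 33 UMIs in all, with Treml1 at 0. T and NK genes gave 4 UMIs and B cell genes 15. The 9 neutrophil genes summed to 78.4 CPM in Arg1 cells and 121 CPM in C1q cells, against 54928 CPM in gated neutrophils (20 or more UMIs of S100a8 plus S100a9, with Csf3r), and Retnlg, Camp and Ngp were at 0 in Arg1 cells. Smooth muscle genes gave 3 or more UMIs in 69.6% of Arg1 cells (median 8144 UMIs), in 70.1% of C1q cells (7574 UMIs) and in 72.3% of gated T cells (3662 UMIs), which do not make them. They summed to 1748 CPM in Arg1 cells and 2061 CPM in C1q cells, against 4257 CPM in gated T cells. Fibroblast genes gave 3 or more UMIs in 48.1% of Arg1 cells, 38.6% of C1q cells and 37.0% of gated T cells, and summed to 766, 621 and 1612 CPM. RFP, a feature listed only in the cKO arch file and taken to be the reporter, reached 16 UMIs in 1.66% of Arg1 cells and 1.23% of C1q cells, against 34.0% of gated smooth muscle cells.

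Arg1 itself varied over a wide range from cell to cell. It was at 3 UMIs in the lowest Arg1 cell, 27 in the median cell and 166 in the highest, and 43 of the 181 cells had 50 or more. Just inside the threshold 10 cells had exactly 3 UMIs, and just outside it 82 Csf1r cells of the library had 1 or 2. As a background, 3.72% of 457 gated T cells (median 3674 UMIs) had an Arg1 UMI and none had 3. Taking a count of 0 to allow 3 cells, the share with 3 could be up to 0.656%. In the other gates of non-phagocytes and neutrophils, 3 or more Arg1 UMIs occurred in 2 of 71 B cells, 3 of 225 endothelial, 2 of 251 neutrophil, 2 of 1376 smooth muscle and 1 of 908 mesenchymal cells, and 2.39 to 7.04% had a UMI. Of the 10819 Arg1 UMIs in kept cells of the library, 59.6% lay in the 181 Arg1 cells.

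Thbs1, which encodes the matricellular protein thrombospondin 1, an activator of latent TGF-beta, was high in some Arg1 cells and nearly absent from others. Its UMIs were 0 in the lowest Arg1 cell, 53 in the median and 560 in the highest, while in C1q cells they were 0, 0 and 153 by the same measures. Of the Arg1 cells 117 had 10 or more Thbs1 UMIs and 55 had 0 to 2, with only 9 in between. Summed over cells, Thbs1 was at 10412 CPM in Arg1 cells and 249 CPM in C1q cells, a log2 ratio of 5.38 (95% counting interval 5.30 to 5.47). The Arg1 cells were chosen with this and the next 5 genes already known as their markers, so these differences are descriptions.

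Cxcl3, a neutrophil-attracting chemokine gene, had 0, 3 and 260 UMIs in the lowest, median and highest Arg1 cell, with 81 cells at 10 or more and 79 at 0. In C1q cells it was at 0 in 556 of 568, and a single cell held 265 of the 282 UMIs of the set. Ppbp, the gene of platelet basic protein and the neutrophil attractant made from it, had 0, 0 and 153 UMIs in Arg1 cells and 0, 0 and 10 in C1q cells. Ppbp was thus not detected in most Arg1 cells (119 at 0) and high in a few (35 at 10 or more).

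Hmox1, which encodes heme oxygenase 1, the enzyme that opens the heme ring, had 0, 2 and 193 UMIs in the lowest, median and highest Arg1 cell and 0, 0 and 134 in C1q cells. Ccl9, a CC chemokine gene of rodents, had 0, 14 and 83 UMIs in Arg1 cells and 0, 1 and 65 in C1q cells. Clec4n, the gene of the fungal pattern receptor Dectin-2, had 0, 3 and 59 UMIs in Arg1 cells and 0, 0 and 23 in C1q cells. The ranges of Arg1 and C1q cells overlapped for each of the 6 genes, so the difference lies in how many cells were high. Of these 6 genes 4 or more had a UMI in 63.5% of Arg1 cells, 3.70% of C1q cells and 9.76% of monocyte-gated cells (82 cells with Csf1r, 5 or more UMIs of Ly6c2 plus Plac8, under 3 of C1q and 0 of Arg1).

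**Figure D1:**
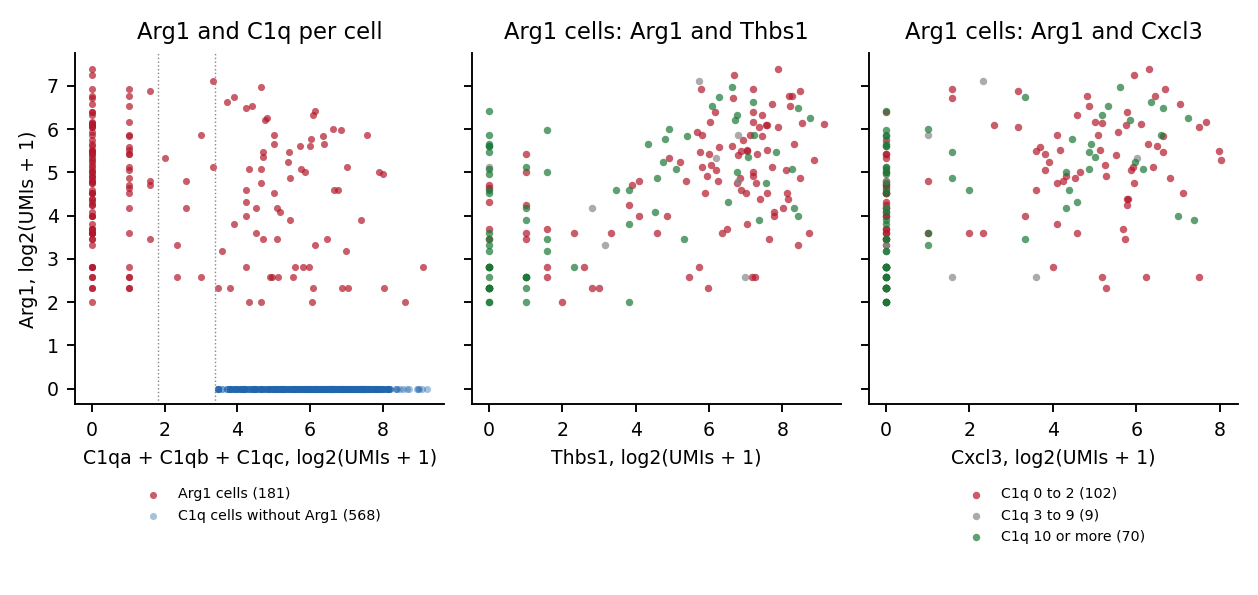
Each point is 1 cell of the cKO arch library, on log2(UMIs + 1) axes. The left panel sets Arg1 against summed C1q UMIs for the 181 Arg1 cells and the 568 C1q cells, with dotted lines that bound the C1q ranges 0 to 2, 3 to 9 and 10 or more. The middle and right panels set Arg1 against Thbs1 and against Cxcl3 in the Arg1 cells, coloured by C1q range: cells fall mostly either at 0 to 2 or at 10 and more UMIs of Thbs1.

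Across the transcriptome, 8684 genes had 50 or more UMIs over both sets. Of these 400 (4.61%) were at least 2-fold higher and 941 (10.8%) at least 2-fold lower in Arg1 cells than in C1q cells, and the median log2 ratio of all tested genes was -0.14. These shares are the background for the list counts of Arg1 cells against C1q cells given above and below. With median-of-ratios scaling, which sets that median to 0, 519 were higher and 759 lower, so the split between directions moves with the scaling. Since the C1q cells were chosen for C1q, the 70 Arg1 cells that themselves had 10 or more C1q UMIs were also set against them, and 288 of 8359 genes (3.45%) were then at least 2-fold higher and 891 (10.7%) lower.

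The genes with the highest ratios after Ppbp were Chil3, Cxcl3, Agpat9 and Thbs1. Chil3, the gene of the chitinase-like lectin Ym1, was at 155 CPM in Arg1 cells and 2.45 CPM in C1q cells (log2 ratio 5.93). Agpat9, a glycerol-3-phosphate acyltransferase gene of triglyceride synthesis, was at 65.9 CPM in Arg1 cells and 1.22 CPM in C1q cells. Next came Slc7a11, the cystine importer that feeds glutathione synthesis, at 232 CPM in Arg1 cells and 10.6 CPM in C1q cells (4.44), and Vegfa, the endothelial growth factor gene, at 517 and 24.1 CPM in the same order (4.42). Vcan, the gene of the matrix proteoglycan versican, Hilpda, which encodes a hypoxia-induced lipid droplet protein, and Ccl24, an eosinophil attractant gene, had log2 ratios of 4.18, 4.01 and 3.99. The remaining genes of the highest 15 were B3gnt5 (3.84), Tarm1 (3.73), the vitamin D receptor gene Vdr (3.60) and Flrt3 (3.52), each detected in 33.1 to 37.0% of Arg1 cells. Of the highest 15, gated neutrophils held more Slc7a11 (456 CPM), Agpat9 (134 CPM) and Tarm1 (82.3 CPM) than the Arg1 cells did, beside their neutrophil gene sum given above, and whether neutrophil RNA had a part in these values was not tested.

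**Figure D2:**
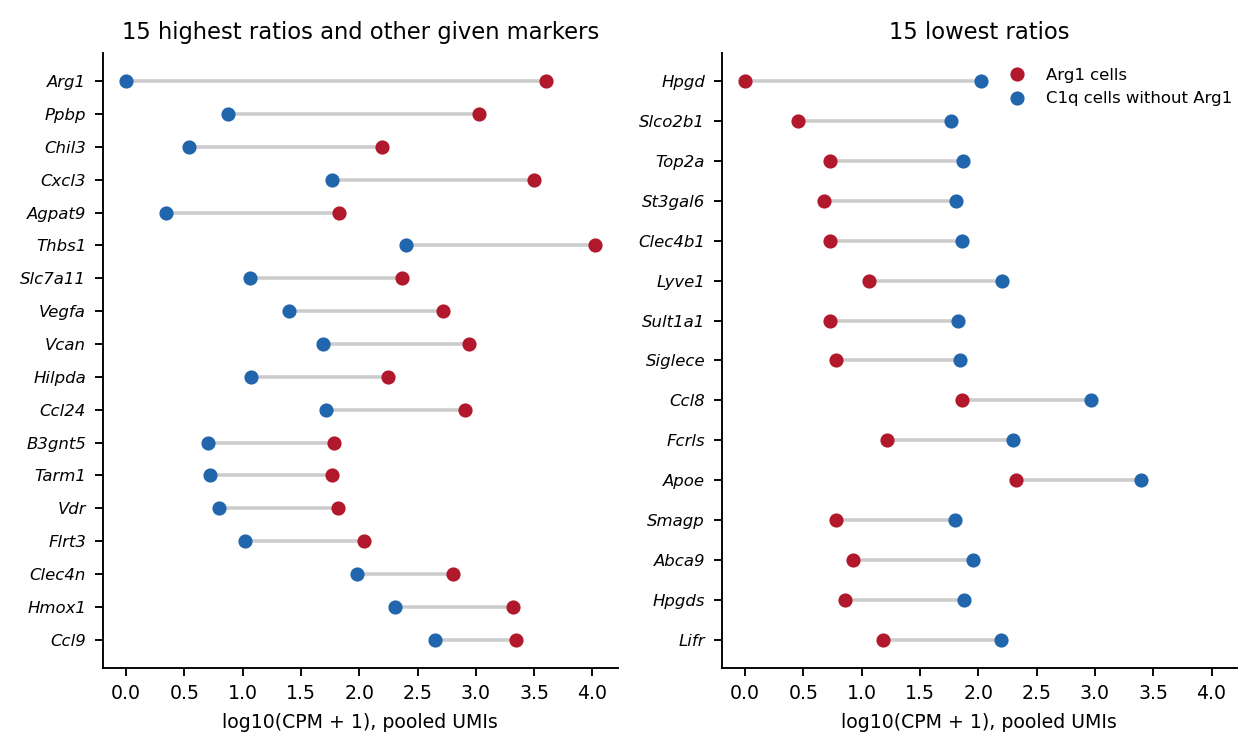
Summed UMIs as log10(CPM + 1) in Arg1 cells (red) and C1q cells without Arg1 (blue), joined by a grey line for each gene. The left panel holds the 15 highest ratios and the other given markers and the right panel the 15 lowest; Arg1 is at 0 in C1q cells by the rule and Hpgd is at 0 in Arg1 cells.

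Several of the chemokine genes that were high in Arg1 cells lie near each other. Cxcl5, Ppbp, Pf4, Cxcl3, Cxcl1 and Cxcl2 lie in this order within 146641 bases of chromosome 5 (chr5:90759298-90905938, GRCm38.p6). A further gene, Cxcl15, lies between Cxcl3 and Cxcl1. The proteins of the 6 genes act on neutrophils through CXCR2, except platelet factor 4 (Pf4). The 120 bases before the RefSeq start are printed for each gene that had a promoter entry. They show these neighbours at letters that many inflammatory promoters share. Cxcl1, Cxcl2 and Cxcl3 have GGGAATTTCC in common there, and Ppbp and Pf4 lack it. Capitals mark an NF-kB-type motif on either strand, GGG and TTTCC with any 2 bases between them, and TATAAA.
Ppbp, chr5:90768398-90768517, plus strand: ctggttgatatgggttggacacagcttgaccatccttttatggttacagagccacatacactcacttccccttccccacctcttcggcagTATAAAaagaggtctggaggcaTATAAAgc
Pf4, chr5:90772315-90772434, plus strand: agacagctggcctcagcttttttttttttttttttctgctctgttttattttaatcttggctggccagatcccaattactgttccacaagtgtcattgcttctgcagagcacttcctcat
Cxcl3, chr5:90785981-90786100, plus strand: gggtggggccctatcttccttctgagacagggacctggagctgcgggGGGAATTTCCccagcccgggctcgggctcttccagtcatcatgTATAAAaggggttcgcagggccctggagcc
Cxcl1, chr5:90891125-90891244, plus strand: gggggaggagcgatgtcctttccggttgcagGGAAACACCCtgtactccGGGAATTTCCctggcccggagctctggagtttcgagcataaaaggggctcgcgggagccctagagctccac
Cxcl2, chr5:90903779-90903898, plus strand: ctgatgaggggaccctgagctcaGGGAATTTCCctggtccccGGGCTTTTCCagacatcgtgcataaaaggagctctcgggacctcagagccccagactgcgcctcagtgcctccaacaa
Within 300 bases around the start, the NF-kB-type motif was present on either strand at Cxcl1, Cxcl2 and Cxcl3, and in 1.89% of all 27025 promoters. TATAAA was present on either strand at Cxcl3 and Ppbp, and in 15.7% of all promoters. A match is a run of letters and no evidence of binding, and no match says only that these letters are not in the window.

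The neighbours differed in level, and their ratios did not follow their order on the chromosome. Pf4 was at 3252 CPM in Arg1 cells and 1092 CPM in C1q cells (log2 ratio 1.57), and Cxcl2 at 5268 and 3131 CPM in the same order (0.75). Cxcl1 had a log2 ratio of 1.58 over all Arg1 cells but of -1.02 in those with 10 or more C1q UMIs, while Cxcl3 had 5.77 and 4.96. Cxcl1, Cxcl2 and Cxcl3 are close paralogs, so reads could be lost or misplaced between them, which was not tested.

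The CXC and CC chemokine list had 21 tested genes, of which 11 were at least 2-fold higher and 4 at least 2-fold lower in Arg1 cells, with a median log2 ratio of 1.15. The monocyte attractant genes Ccl2 and Ccl7 were at 3633 and 2586 CPM in Arg1 cells and at 910 and 870 CPM in C1q cells. Ccl6, a neighbour and relative of Ccl9, was at 5919 CPM in Arg1 cells and 1353 CPM in C1q cells. In the opposite direction stood Ccl8, a macrophage chemokine gene, at 70.9 CPM in Arg1 cells against 930 CPM in C1q cells, though only -0.65 on the log2 scale against C1q cells without Folr2, Lyve1 and Cd163, and the T cell attractant genes Cxcl9 (log2 ratio -2.14) and Cxcl13 (-2.04).

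Genes of matrix, proteolysis and clotting made up the longest list, with 17 of 35 tested genes at least 2-fold higher, 4 lower and a median of 0.95. Fn1, the fibronectin gene, was at 4437 CPM in Arg1 cells and 555 CPM in C1q cells. F10, the gene of coagulation factor X, was at 216 and 22.2 CPM in the same order, and F7, of factor VII, at 38.6 and 8.77 CPM. Tgm2, a protein crosslinking enzyme gene, had a log2 ratio of 2.95, the protease gene Mmp19 of 2.94, the activin subunit gene Inhba of 2.44 and the urokinase receptor gene Plaur of 2.03. The growth factor gene Pdgfb (-1.59) and the protease inhibitor gene Timp2 (-1.57) were lower in Arg1 cells.

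Of the arginine and polyamine list, 5 of 18 tested genes, Arg1 included, were at least 2-fold higher and 0 lower. Arg2, the mitochondrial arginase gene, was at 204 CPM in Arg1 cells and 31.4 CPM in C1q cells (2.70). The arginine importer gene Slc7a2 was at 83.4 CPM in Arg1 cells and 26.9 CPM in C1q cells. Odc1, which encodes the enzyme that turns ornithine into putrescine, was at 69.7 and 67.3 CPM in the same order. Among 21 tested regulators known to act on Arg1, Hif1a, the hypoxia factor gene, was at 1033 CPM in Arg1 cells and 144 CPM in C1q cells, and Cebpb at 1806 and 546 CPM. Stat6, the transducer of interleukin 4, was at 81.5 CPM in Arg1 cells and 70.1 CPM in C1q cells, and Irf4, a further factor of that response, had a log2 ratio of -2.09.

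The glycolysis and hypoxia list showed a one-sided picture: 14 of 30 tested genes were at least 2-fold higher and 0 lower, with a median of 0.85, and 15 of 29 were higher in Arg1 cells with 10 or more C1q UMIs. The lactate exporter gene Slc16a3 (log2 ratio 2.31), the hexokinase gene Hk2 (2.27) and the glucose importer gene Slc2a1 (1.98) were the highest besides Vegfa, Hilpda and Hif1a. Ldha, of lactate dehydrogenase, was at 465 CPM in Arg1 cells and 296 CPM in C1q cells, short of 2-fold.

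Of 24 tested genes of heme, iron and antioxidant defence, 9 were at least 2-fold higher and 1 lower. Besides Hmox1 and Slc7a11 these included the peroxiredoxin gene Prdx6 (2.31), the glutathione reductase gene Gsr (1.94) and the thioredoxin reductase gene Txnrd1 (1.59). Fth1, the ferritin heavy chain gene, was at 18523 CPM in Arg1 cells and 11338 CPM in C1q cells (0.71). Red cell genes summed to 77.8 CPM in Arg1 cells and 1700 CPM in C1q cells, a gap that rests on few cells. They gave 3 or more UMIs in 5.52% of Arg1 cells and 5.99% of C1q cells, with a median of 0 in both. The highest cell had 10.4 red cell UMIs per 10000 among Arg1 cells and 5751 among C1q cells.

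The lipid-associated macrophage list held 13 of 24 tested genes at least 2-fold higher and 1 lower, but its defining members did not move as one. Gpnmb, a lysosomal stress glycoprotein gene, was at 27.4 CPM in Arg1 cells and 4.28 CPM in C1q cells, and the fatty acid carrier gene Fabp5 had a log2 ratio of 2.62. The scavenger receptor genes Msr1 and Cd36 had log2 ratios of 2.35 and 2.09. Spp1, the osteopontin gene, was at 1912 CPM in Arg1 cells and 467 CPM in C1q cells, beside 513 CPM in gated T cells and 7484 CPM in gated mesenchymal cells, and the part of free RNA was not tested. Trem2, the lipid-sensing receptor gene, had a log2 ratio of -0.62, and the lipid carrier gene Apoe was at 208 CPM in Arg1 cells against 2474 CPM in C1q cells (-3.57).

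Genes of long-lived resident macrophages were mostly low. Of 24 tested, 18 were at least 2-fold lower, 1 (Ccl24) was higher and the median was -2.44; in Arg1 cells with 10 or more C1q UMIs it was -1.77. Folr2, the folate receptor gene, was at 27.4 CPM in Arg1 cells and 234 CPM in C1q cells, and the hyaluronan receptor gene Lyve1 at 10.6 and 159 CPM. Timd4, a receptor gene for dying cells, was at 0 in Arg1 cells and at 17.1 CPM in C1q cells, at least 9.18-fold lower when the set is given 3 UMIs. The mannose receptor gene Mrc1 (-0.64) and the scavenger receptor gene Cd163 (-1.42) were closer between the sets.

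Hpgd, which encodes the enzyme that inactivates prostaglandin E2, had 0 UMIs in all 181 Arg1 cells and 508 UMIs in C1q cells, of which 37.0% had a UMI. At a floor of 3 UMIs over the set it was at least 55.5-fold lower in Arg1 cells, and at least 24.5-fold lower in those with 10 or more C1q UMIs. Ptgs2, the gene of the inducible cyclooxygenase that starts prostaglandin synthesis, was at 460 CPM in Arg1 cells and 45.9 CPM in C1q cells (3.32). Hpgds, of prostaglandin D2 synthesis, was at 6.22 and 74.0 CPM in the same order. The lipoxygenase gene Alox15 was at 0 in Arg1 cells and 48.7 CPM in C1q cells, at least 26.1-fold lower by counting error alone. With cells thinned to equal depth, it was present in 1.66% of C1q cells and 0% of Arg1 cells. Its sum in C1q cells thus rests on few cells, which the bound does not cover.

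The other genes among the lowest 15 were Slco2b1, an organic anion transporter gene (log2 ratio -4.73, interval -7.23 to -3.38, from 3 UMIs in Arg1 cells), the DNA topoisomerase gene Top2a (-3.98), the sialyltransferase gene St3gal6 (-3.96), the lectin gene Clec4b1 (-3.95), the sulfotransferase gene Sult1a1 (-3.82), the sialic acid receptor gene Siglece (-3.71), the Fc receptor-like gene Fcrls (-3.65), Smagp (-3.55), the transporter gene Abca9 (-3.52) and the cytokine receptor gene Lifr (-3.40). Lifr was detected in 9.94% of Arg1 cells and 57.4% of C1q cells.

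Antigen presentation genes were lower: 8 of 13 tested MHC class II genes were at least 2-fold lower and 1 higher, with a median of -1.29. H2-Aa was at 1653 CPM in Arg1 cells and 6950 CPM in C1q cells, and the invariant chain gene Cd74 at 4750 and 16210 CPM. Cd80, a costimulatory ligand gene, was the member that was higher (2.24). Cell cycle genes were also low in sum, with 17 of 19 tested at least 2-fold lower. The proliferation marker Mki67 was at 2.49 CPM in Arg1 cells and 72.8 CPM in C1q cells. Per cell the list had a median of 2.89 UMIs per 10000 in Arg1 cells and 5.53 in C1q cells, and the highest cells had 44.0 and 113.9. Top2a was detected in 1.10% of Arg1 cells and 11.4% of C1q cells.

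Genes often grouped with Arg1 under alternative activation were split, with 10 of 21 tested at least 2-fold higher and 8 lower. Retnla, of the secreted protein Fizz1, was at 841 CPM in Arg1 cells and 4123 CPM in C1q cells. Only 19 Arg1 cells had a Retnla UMI, and 5 of them held 97.3% of its 1352 UMIs, so its sum rests on few cells. Pdcd1lg2, the gene of the checkpoint ligand PD-L2, was higher (2.27), as was Cd274, the gene of PD-L1, at 90.8 CPM in Arg1 cells and 19.6 CPM in C1q cells.

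Among 16 tested cytokine genes 7 were at least 2-fold higher and 2 lower. Il1b was at 1447 CPM in Arg1 cells and 404 CPM in C1q cells, and its antagonist gene Il1rn at 448 and 89.9 CPM. Osm, the oncostatin M gene, was at 325 and 61.0 CPM in the same order, while Il10 was at 1.24 and 19.4 CPM and Tnf had a log2 ratio of -0.70. The 33 NF-kB and stress feedback genes had 2 higher and 6 lower, with Egr1 at -2.44. The 25 interferon-stimulated genes had 4 higher and 1 lower. For both lists the shares over all tested genes were 4.61% higher and 10.8% lower.

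**Figure D3:**
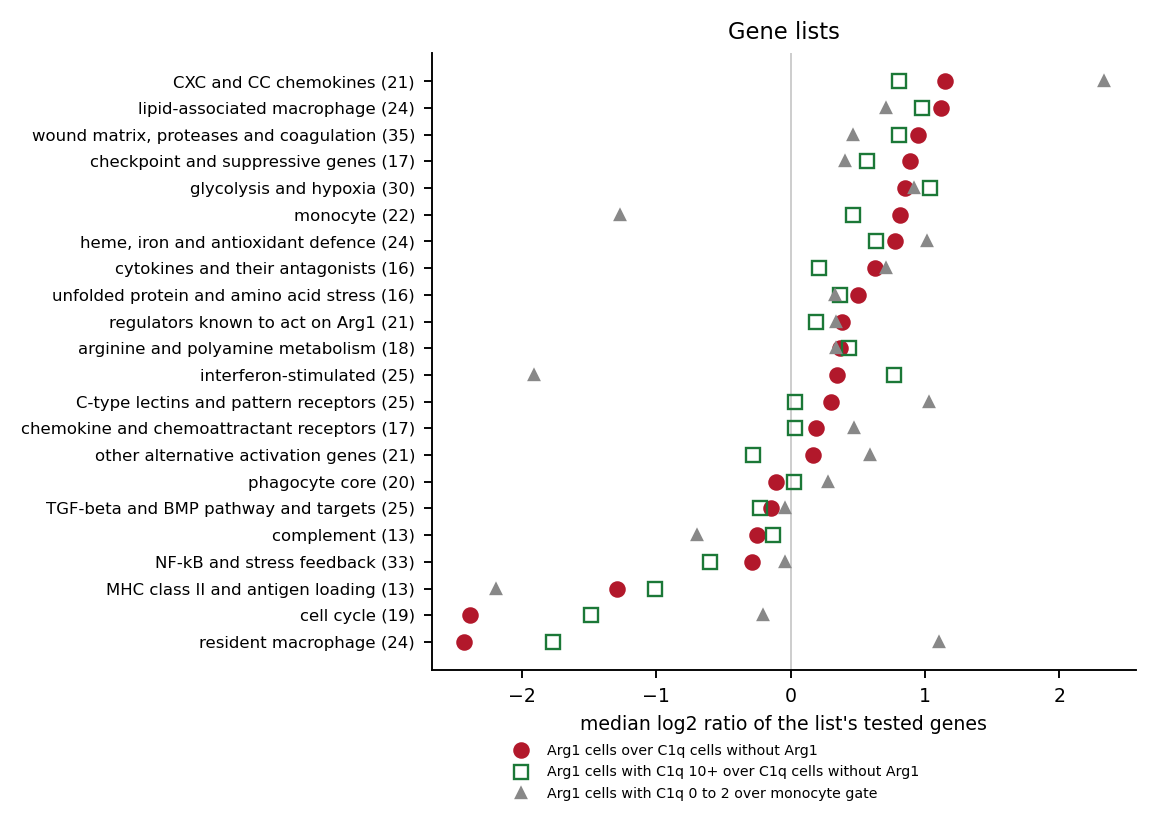
Median log2 ratio of the tested genes of each list, with the number tested over Arg1 against C1q cells in parentheses. Red circles set Arg1 cells against C1q cells, green squares the Arg1 cells with 10 or more C1q UMIs against C1q cells, and grey triangles the Arg1 cells with 0 to 2 C1q UMIs against monocyte-gated cells; the resident macrophage list lies at -2.44, -1.77 and 1.10 by these measures.

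The rule did not sort Arg1 cells by C1q, and cells with little and with much of it differed in many genes. Setting the 102 cells with 0 to 2 C1q UMIs against the 70 with 10 or more, 181 of 4106 tested genes (4.41%) were at least 2-fold higher and 184 (4.48%) lower in the low C1q cells. Thbs1 had a median of 100.5 UMIs in low C1q cells and 2 in high C1q cells, and summed to 14800 and 5249 CPM. Fn1 was at 6336 CPM in low C1q cells and 2046 CPM in high C1q cells, Vcan at 1256 and 425 CPM, Il1b at 2110 and 672 CPM and Cxcl1 at 475 and 43.8 CPM. Lower in the low C1q cells were Retnla (22.4 against 1833 CPM), Ccl8 (5.90 against 152 CPM), the tetraspan gene Ms4a7 (56.7 against 381 CPM) and the interferon-induced gene Isg15 (316 against 1054 CPM). Ppbp (1061 and 1036 CPM) and Pf4 (3364 and 2941 CPM) were at like levels in the low and the high C1q cells. Smooth muscle genes summed to 2357 CPM in low C1q cells and 1082 CPM in high C1q cells, and fibroblast genes to 1109 and 378 CPM; their part in these differences was not tested.

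Grouping the Arg1 cells by Thbs1, a split chosen after its values were seen, separated the other markers. The 117 cells with 10 or more Thbs1 UMIs had a median of 37 Arg1 UMIs, and the 55 with 0 to 2 a median of 10, at median depths of 8031 and 8929 UMIs. Cxcl3 reached 10 UMIs in 80 of the 117 and in 1 of the 55. Vegfa was at 804 CPM in the Thbs1-high and 39.1 CPM in the Thbs1-low cells, Hmox1 at 3185 and 169 CPM, and Vcan at 1375 and 23.1 CPM. C1qa stood in the opposite order, at 298 CPM in the Thbs1-high and 2144 CPM in the Thbs1-low cells, as did H2-Aa (738 and 3116 CPM) and Isg15 (298 and 1242 CPM). Of the 55 Thbs1-low cells 38 had 10 or more C1q UMIs, against 31 of the 117. Ppbp was at 1701 CPM in the Thbs1-high and 14.2 CPM in the Thbs1-low cells. Ccl9 was at 3240 CPM in the Thbs1-high and 516 CPM in the Thbs1-low cells, with a UMI in 72.7% of the Thbs1-low cells, and Clec4n at 878 and 235 CPM, with a UMI in 45.5%. The Thbs1-low cells, 30.4% of the Arg1 cells, thus lay near the C1q cells in summed Hmox1 and Ccl9 and above them in Clec4n. Cxcl3 had a UMI in 9.09% of the Thbs1-low cells and 2.11% of the C1q cells. Its sums rest mostly on 1 cell in each set, which held 19 of 25 UMIs in the Thbs1-low and 265 of 282 in the C1q cells.

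Ppbp and Pf4 followed each other from cell to cell. The 50 Arg1 cells with 3 or more Ppbp UMIs had 8347 CPM of Pf4 and the 119 with none had 1347 CPM, at median depths of 8236 and 8225 UMIs. Arg1 was at 6395 CPM in the Ppbp-high and 2970 CPM in the Ppbp-negative cells, Cxcl3 at 6300 and 1844 CPM, and Hmox1 at 4506 and 1074 CPM. Both genes are known for their abundance in platelets. A UMI of any of the platelet genes Gp9, Itga2b, Gp1bb, Gp5, Tubb1, Treml1 and Clec1b was present in 4 of the 50 and 9 of the 119 cells. Clec1b was at 9.57 CPM in the Ppbp-high and 1.80 CPM in the Ppbp-negative cells, and Gp5 at 0 and 2.69 CPM, all from few UMIs. Whether platelet RNA had a part in these values was not tested.

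Levels of several genes went along with the amount of Arg1. In Csf1r cells with 1 to 2, and in Arg1 cells with 3 to 9, 10 to 29, 30 to 49 and 50 or more Arg1 UMIs, Cxcl3 was at 299.7, 1080, 2230, 4452 and 4713 CPM. Thbs1 was at 1736, 2954, 10597, 10752 and 15653 CPM and Pf4 at 1058, 722, 2553, 3796 and 5583 CPM over the same ranges. The monocyte gene Ly6c2 went the other way above the threshold, at 1065, 599, 212 and 147 CPM from 3 to 9 up to 50 or more. Hpgd was at 20.3 CPM in cells with 1 to 2 Arg1 UMIs and at 0 in each range above. These ranges hold 82, 39, 60, 39 and 43 cells, and median depth was 7453, 7298, 7563, 8117 and 8956 UMIs, so cells with more Arg1 were also somewhat deeper.

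**Figure D4:**
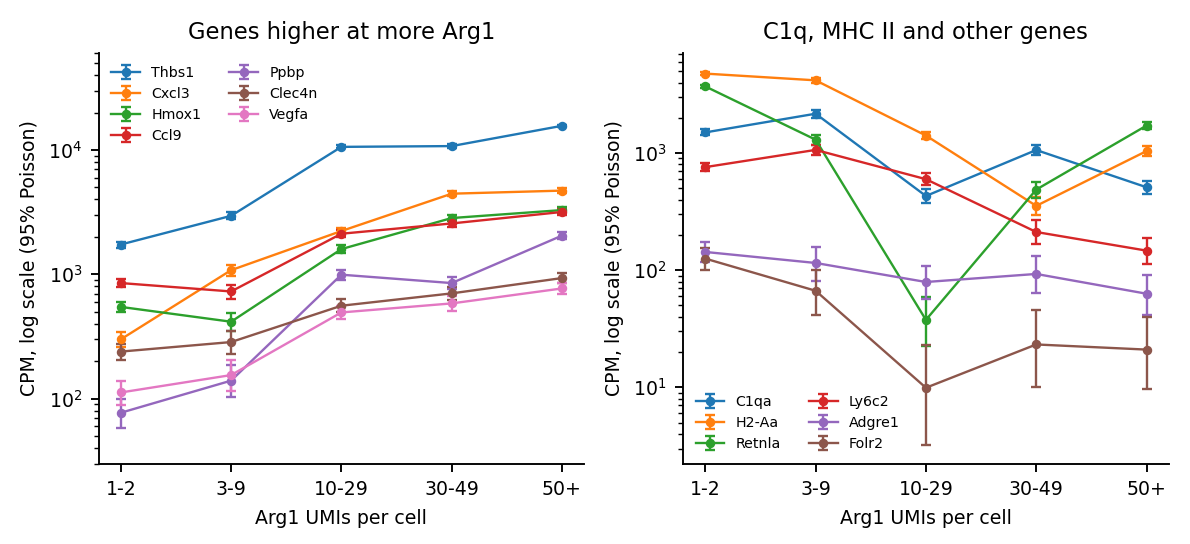
Summed level in CPM, on a log axis with exact 95% Poisson bars, of markers and Vegfa (left) and of other genes (right) in cells of the cKO arch library grouped by their Arg1 UMIs, from 1 to 2 (Csf1r cells outside the rule) up to 50 or more. Thbs1 and Cxcl3 are highest in the range of 50 or more, at 15653 and 4713 CPM, and Ly6c2 is lowest there, at 147 CPM.

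Because most Arg1 cells held little C1q, the 102 low C1q cells were also set against the 82 monocyte-gated cells of the same library, a comparison added after the data were seen. Of 4159 genes 265 (6.37%) were at least 2-fold higher and 383 (9.21%) lower. Pf4 was at 3364 CPM in low C1q Arg1 cells and 24.7 CPM in monocyte-gated cells, Hmox1 at 2463 and 102 CPM, Ccl24 at 1074 and 23.2 CPM, and Thbs1 at 14800 and 1693 CPM. Lower were the interferon-gamma-induced gene Cxcl9 (2.36 against 529 CPM), the dendritic chemokine gene Ccl17 (53.1 against 654 CPM) and H2-Aa (857 against 6018 CPM). Marker genes of dendritic cells gave 3 or more UMIs in 17.1% of monocyte-gated cells and in 0% of low C1q Arg1 cells. The part of dendritic cells in these differences was not tested. Of the 25 interferon-stimulated genes 22 were at least 2-fold lower and 0 higher. Ly6c2 (362 against 1721 CPM) and Plac8 (444 against 1567 CPM) were lower too, but the gate was set on them. The gate also lacks Arg1 by rule: without that condition 48 of 148 cells of the gate had 3 or more Arg1 UMIs.

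The cells were counted by the same rule in every library. The rule found 181 cells in the cKO arch, 14.3% of its 1270 Csf1r cells (exact 95% interval 12.4 to 16.3), 0 of 580 in the control arch, 1 of 695 in the cKO descending and 15 of 711, or 2.11% (1.19 to 3.46), in the control descending library. As shares of all kept cells these were 3.10, 0, 0.0169 and 0.288% in the same order. For the 0 of the control arch the exact 95% interval reached 0.0427%. Thinned to 2000 UMIs per cell, an Arg1 UMI was present in 13.4% of 605 cells of the cKO arch with 10 or more C1q UMIs and Csf1r, and without Cd3e and Pecam1. The same share was 0% of 265 in the control arch, 0% of 355 in the cKO descending and 2.83% of 424 in the control descending library; unthinned the 4 values were 17.8, 0, 1.05 and 8.90%. The cKO arch was counted with another gene annotation than the other libraries, and the part of annotation, animal and library cannot be told apart from genotype and site.

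**Figure D5:**
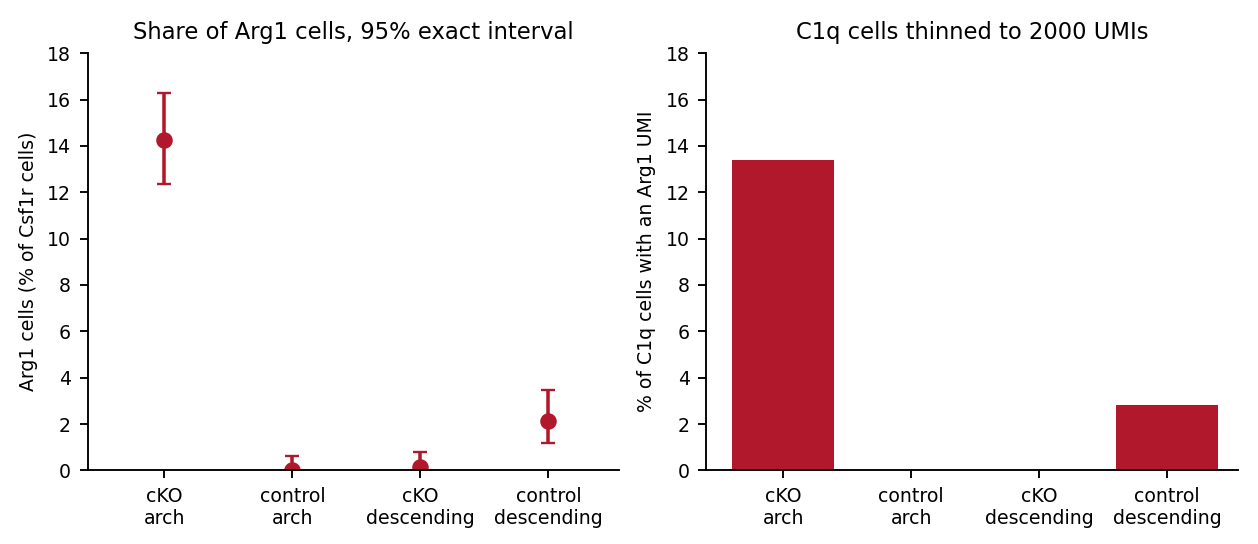
Left, Arg1 cells as a percentage of the Csf1r cells of each library, with exact 95% intervals for counting error. Right, the percentage of cells with 10 or more C1q UMIs that hold an Arg1 UMI after thinning to 2000 UMIs, which is 13.4% for the cKO arch, 2.83% for the control descending library and 0% for the other 2.

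The 15 cells of the control descending library were of another kind. Doublet removal by the highest Scrublet scores would take 3 of the 15 and 4 of the 181 cKO arch cells. The 15 had a median of 20900 UMIs, against 8144 in the cKO arch Arg1 cells, at most 13 Arg1 UMIs, and an Arg1 level of 254 CPM against 4013 CPM. Cxcl3 was at 0 in all 15, Hmox1 at 95.2 CPM and Vegfa at 8.65 CPM. Genes of serous-cavity macrophages were high instead, with the lipoxygenase gene Alox15 at 1829 CPM and the lubricin gene Prg4 at 3958 CPM, against 0 and 3.73 CPM in the cKO arch Arg1 cells. C1q cells of the control descending library had 614 CPM of Alox15 and 1529 CPM of Prg4. The single cell of the cKO descending library had 45574 UMIs, 11 of Arg1, 0 of Cxcl3 and 1580 CPM of Prg4.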

How the data were processed

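The authors deposited unnormalized UMI counts for each gene in each cell barcode of 4 droplet libraries made with a 5′ kit, already limited to barcodes called as cells. Reads were counted against mm10 with Cell Ranger 6.1.1 per the submitters' processing notes, while the matrix headers name 6.1.2. The cKO arch matrix lists 28693 features and each of the others 32285, and the annotation release is not stated.

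The members, the 34 gene lists and the gates were chosen with earlier results of these data known. UMIs were summed over the cells of a set and scaled to CPM by all UMIs of the set. Log2 ratios used a prior of 0.5 UMI and exact conditional 95% intervals, sums exact Poisson intervals and shares exact Clopper-Pearson intervals, all for counting error only. Called means at least 2-fold among genes with 50 or more UMIs over both sets. Genes were named as the 7 given markers and the 15 highest and 15 lowest ratios with at least 100 UMIs over both sets, 50 CPM in either and detection in 10% of the cells of the higher set. Genes without a proper name, mitochondrial, ribosomal, haemoglobin and antigen receptor genes, and those under 0.1 of the level in another gated class were left out. From each list the first members and those furthest from 0 were named, with others from the same list. The C1q, Thbs1, Ppbp and Arg1 splits of the Arg1 cells are descriptions. Doublets were not removed, and removal was tried as an alternative with Scrublet in scanpy 1.11.5. The sums and intervals were checked on simulated data. Promoters came from RefSeq, GRCm38.p6, with no entry for 4 of the 15 genes with the highest ratios. Work used Python 3.11.15, numpy 2.4.6, scipy 1.17.1, pandas 2.3.3 and matplotlib 3.10.9.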

Additional observations from a re-analysis of the deposited data

How the results depend on the processing

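The share of Arg1 cells in the cKO arch, 3.10% of kept cells, was 2.43% at 10 or more Arg1 UMIs, 2.64 and 3.85% with 200 and 1000 genes as the barcode limit, 4.04% under 5% mitochondrial UMIs, 3.70% with no limit on Cd3e and Pecam1, 4.30% with none on Csf1r (added after seeing the data) and 1.49% after thinning to 2000 UMIs. It was 0.411% when cells with 3 UMIs of any other-cell list were left out, a limit that smooth muscle RNA reaches in 69.6% of Arg1 cells. In the cKO descending library 0.0169% became 0% after that removal or thinning and 0.203% without the Csf1r limit. In the control descending library 0.288% became 0.499, 0.115 and 0.0576% at 2, 5 and 10 Arg1 UMIs, 0.0384% after the removal, 0.480% without the Csf1r limit and 0.0236% thinned. The control arch stayed at 0 except for 1 cell without the Csf1r limit. The 400 of 8684 tested genes at least 2-fold higher became 1469 of 15872 with no filter on low counts and 246 of 4469 at 200 UMIs per gene. They became 247 of 2305 after the removal, which left 24 Arg1 cells, and 265 of 4159 for low C1q cells against the monocyte gate. The 941 lower genes became 2715, 316, 305 and 383 under the same settings. They were 404 of 4086 thinned, 551 of 8684 with a prior of 5 UMIs and 538 of 6270 at 20 CPM in either set. Each setting tests other genes or shrinks low ones, except the monocyte comparison, so the counts have unlike totals. Of 489 list medians under 18 alternatives 456 moved by less than their spread, 32 moved further and 1 called median changed sign, the resident macrophage list at 1.10 against the monocyte gate, and 15 further combinations gave no value. Medians under 1 in size changed sign too. The monocyte list, at 0.82 against C1q cells, was at -1.27 against the monocyte gate, which was set on 2 of its genes. The interferon list, at 0.35 against C1q cells, was at -1.91 against that gate, and at -0.37 and -0.63 with 5 and 10 Arg1 UMIs as the limit. In all 30 list medians changed sign, 25 of them from under 0.5 to under 0.5 in size. Of 594 values for 33 named genes 587 stayed at least 2-fold in the same direction. Against the monocyte gate Fcrls was at 2.02, B3gnt5 at 0.85, Vdr at 0.89 and Slco2b1 and Lyve1 at -0.30. Against C1q cells without Folr2, Lyve1 and Cd163, Lyve1 was at 6.23, by the choice of those cells, and Ccl8 at -0.65. No paired analysis was possible because each group has 1 library.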

Other observations

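Of the C-type lectin genes that differed, Clec4n, Clec4d, Clec4e and Clec4b1 lie close together on chromosome 6. Clec4n (chr6:123229843-123247024, GRCm38.p6), Clec4d (chr6:123262107-123275268) and Clec4e (chr6:123281789-123289871), which encode Dectin-2, a macrophage C-type lectin and the mycobacterial sensor Mincle, had log2 ratios of 2.75, 3.47 and 3.05 in Arg1 cells over C1q cells. Clec4b1 (chr6:123049962-123071555) and Clec4a1 had -3.95 and -1.95. Of the 25 tested C-type lectin and pattern receptor genes 6 were at least 2-fold higher and 4 lower, with a median of 0.30. The leukotriene B4 receptor gene Ltb4r1 was at 244 CPM in Arg1 cells and 27.7 CPM in C1q cells, the chemokine receptor gene Ccr1 at 289 and 60.8 CPM, and Cx3cr1 at 51.6 and 326 CPM. Of 16 tested genes of the unfolded protein and amino acid stress list 3 were at least 2-fold higher and 1 lower, with Xbp1 at 278 CPM in Arg1 cells and 106 CPM in C1q cells. Of 25 tested TGF-beta and BMP genes 2 were higher and 1 lower, with the ligand gene Tgfb1 at 513 and 276 CPM and the receptor gene Tgfbr2 at 49.8 and 172 CPM. Of 13 complement genes, C1q among them, 2 were higher and 5 lower. Beside the counts of these lists, 4.61% of all tested genes were higher and 10.8% lower.

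In the cKO arch library 116 further kept cells had 3 or more Arg1 UMIs but failed the rule: 81 lacked Csf1r, 43 had a Pecam1 UMI and 4 a Cd3e UMI, some for more than 1 reason. They had a median of 6143 UMIs and 22.5 Arg1 UMIs, and 6147 CPM of Cxcl3, 11179 of Thbs1, 1527 of Ppbp and 3401 of Hmox1, beside 3133, 10412, 1069 and 2070 CPM in the 181 Arg1 cells. C1q cells without Arg1 also differed between libraries. Retnla was at 4123 CPM in the cKO arch, 14248 CPM in the control arch, 14941 CPM in the cKO descending and 10049 CPM in the control descending library, and Spp1 at 467, 7.84, 0.934 and 2.35 CPM. Il1b was at 404, 45.1, 9.66 and 14.7 CPM in these cells in the same order.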
